A study of Homo sapiens with 2 samples.

Results

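Autophagy delivers cargo to the lysosome inside a double membrane, and the genes described here encode the proteins that join cargo to that membrane. ATG8 proteins, the LC3 and GABARAP families, are attached to a lipid of the growing membrane, and cargo receptors bind ubiquitin-tagged cargo with part of their chain and an ATG8 protein with another part. The receptor SQSTM1 is itself degraded with its cargo and also binds KEAP1, the adaptor that keeps the transcription factor NRF2 low, so that transcript and protein of such genes need not move together. The set was 5 receptors (SQSTM1, NBR1, OPTN, TAX1BP1 and CALCOCO2) and 5 ATG8 genes (MAP1LC3A, MAP1LC3B, GABARAP, GABARAPL1 and GABARAPL2), found by symbol among 22585 gene symbols. All 10 had a row in both tables, and 9 of them were among the 14239 measured genes, meaning those with at least 20 counts over both libraries. MAP1LC3A was the exception.

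RNA came from 786-O cells, an established human line of clear cell kidney carcinoma without working VHL. The ubiquitin ligase that marks HIF proteins for destruction needs VHL. The culture with glucose had 25 mM in its medium and the culture without had 0 mM, and each gave 1 RNA-seq library, of 27317584 and 31345828 counts. How long the cells went without glucose is not stated. A short code in the descriptions also differs between the libraries, LucF with glucose and LucG without. If it marks a further difference between the cultures, that difference and glucose cannot be told apart. With 1 library per group there is no replicate check and no test, and every interval is an exact 95% interval for counting error only.

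Of 9 renal markers, all were measured, with PAX8, the renal lineage transcription factor, at 6796 and 7123 counts with and without glucose. EPAS1 was past the size rule defined below as higher without glucose, and CDH6 and LHX1 as lower. Of all measured genes, 3.75% were past it as higher and 6.20% as lower. The 9 markers summed to 5578 CPM with glucose and 7113 CPM without, where CPM is counts per 1e6 of the effective library size. VIM, which is not particular to kidney, gave 4336 and 5791 CPM of these sums. The counting interval of the ratio lay below equality for 6 of the 9 markers and above it for 3. The shares over all measured genes were 36.5% below and 37.4% above. Of the leukocyte markers the defining PTPRC and CD3E had 9 and 4, and 1 and 2 counts, and of the 4 endothelial markers PECAM1, VWF and CDH5 had at most 6 and KDR had 32 and 8. CD68 was past the size rule as higher without glucose (297 and 786 counts, log2 ratio 1.26, interval 1.07 to 1.46), and the fibroblast marker LUM was past it as lower (295 and 100 counts, log2 ratio -1.70, interval -2.05 to -1.37). The 5 leukocyte markers summed to 264 CPM with glucose and 346 CPM without, of which LCP1 gave 253 and 320 CPM, the 4 endothelial markers to 1.72 and 0.390 CPM, and the 6 fibroblast markers to 20.8 and 10.6 CPM, of which LUM gave 10.6 and 3.25 CPM. Of 6 measured noncoding RNAs, listed as a check of RNA selection, 3 were past the size rule, all higher without glucose. The share called higher over all measured genes was 3.75%. The 3 noncoding RNAs were GAS5, SNHG1 and SNHG12, host transcripts of small nucleolar RNAs and not RNAs kept in the nucleus. The nuclear RNAs MALAT1, NEAT1 and KCNQ1OT1 were inside the bounds, with log2 ratios of 0.26, 0.08 and 0.17. The part of these marker and noncoding RNA differences in the values below was not tested.

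The members lie on separate loci in the tables, which give hg19 coordinates. SQSTM1 lies on chromosome 5 from 179233388 to 179265077, NBR1 on chromosome 17 from 41322498 to 41363707, OPTN on chromosome 10 from 13142082 to 13180276, TAX1BP1 on chromosome 7 from 27779738 to 27869386 and CALCOCO2 on chromosome 17 from 46908372 to 46942229, and all are transcribed from the plus strand. MAP1LC3A lies on chromosome 20 from 33134692 to 33148149, MAP1LC3B on chromosome 16 from 87425801 to 87438380, GABARAPL1 on chromosome 12 from 10365489 to 10375724 and GABARAPL2 on chromosome 16 from 75600249 to 75611779, again with the plus strand transcribed. GABARAP, the only member transcribed from the minus strand, lies on chromosome 17 from 7143738 to 7145753.

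The promoters of SQSTM1 and MAP1LC3B are shown because these were the members with the largest ratios. Each is the 250 bases before a RefSeq transcript start in GRCh38.p14, on the plus strand. For SQSTM1, which has 3 such starts in RefSeq, it is chr5:179820655-179820904, the only one of the 3 with a match to a searched motif. For MAP1LC3B it is chr16:87392086-87392335. Capitals mark matches to TGANNNNGC, the core of the antioxidant response element that NRF2 binds.
SQSTM1: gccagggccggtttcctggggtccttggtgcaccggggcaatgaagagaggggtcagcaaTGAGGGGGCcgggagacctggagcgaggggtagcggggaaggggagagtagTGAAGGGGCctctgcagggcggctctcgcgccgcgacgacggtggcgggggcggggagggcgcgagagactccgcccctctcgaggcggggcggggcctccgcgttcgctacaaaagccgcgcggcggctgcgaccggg
MAP1LC3B: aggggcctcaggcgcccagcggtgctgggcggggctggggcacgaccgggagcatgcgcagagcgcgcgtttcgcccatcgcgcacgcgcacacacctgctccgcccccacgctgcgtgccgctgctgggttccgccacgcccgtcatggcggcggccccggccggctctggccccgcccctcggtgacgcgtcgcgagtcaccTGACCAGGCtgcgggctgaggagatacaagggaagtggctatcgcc
SQSTM1 held 2 matches, TGAGGGGGC and TGAAGGGGC, and MAP1LC3B held 1, TGACCAGGC.

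Of the 9 members with a promoter in the RefSeq table, 4 held this core on either strand (SQSTM1, CALCOCO2, MAP1LC3B and GABARAP), against 40.3% of all 27305 genes with a promoter of that length. That share is close to the background. CALCOCO2 held 2 matches. A relation of matches to ratios was not tested. The core of the element bound by TFEB and TFE3, CACGTG, was in no member's window and in 7.73% of all genes. The C/EBP-ATF element TGATGNAA was likewise in none, against 3.89% of genes. The cAMP response element TGACGTCA was in GABARAPL1 alone, from 30 to 23 bases before the start, and in 2.03% of genes, and the forkhead element TGTTTAC was in CALCOCO2 alone and in 3.66%. No pair of these motifs overlapped within a member's window. These are matches of letters within 250 bases and not sites.

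MAP1LC3B has a near-identical copy, MAP1LC3B2 on chromosome 12, which bears on how its reads can be assigned. The first 120 of 378 coding bases of each are shown from GENCODE release 29, counted from 1 at the A of the start codon, with capitals where the pair differ.
MAP1LC3B: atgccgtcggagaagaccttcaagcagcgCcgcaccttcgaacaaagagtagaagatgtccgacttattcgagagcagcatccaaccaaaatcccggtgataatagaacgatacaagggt
MAP1LC3B2: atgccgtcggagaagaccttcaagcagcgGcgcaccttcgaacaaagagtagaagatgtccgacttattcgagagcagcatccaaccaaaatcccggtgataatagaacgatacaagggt
The full coding sequences differ at 2 positions, C30G and A338G with the base of MAP1LC3B first, and are 99.5% identical. Other ATG8 coding sequences are further apart, with 76.8% identity between GABARAP and GABARAPL1, 73.1% between MAP1LC3A and MAP1LC3B over aligned bases, and 55.0% between MAP1LC3B and GABARAP.

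Transcripts of 8 of the 9 measured members were more abundant without glucose by more than counting error, and 2 of them, SQSTM1 and MAP1LC3B, were more than 2-fold higher. A gene was called past the size rule when its whole counting interval lay above 2-fold or below 0.5-fold. SQSTM1 and MAP1LC3B met the upper bound and no member met the lower one, against 3.75% of all measured genes called higher and 6.20% called lower. The interval lay above equality for 8 of 9 measured members, against 37.4% of all measured genes and 44.1% of the 8706 genes with at least 871 counts, the count of the least counted measured member. CALCOCO2 was the remaining one, and no member had an interval below equality, as 36.5% of all measured genes did. At 1.5-fold TAX1BP1 and GABARAP were also past the upper bound, which made 4 members, against 10.2% of all measured genes. Among the genes with at least 871 counts, 3.43% were called higher at 2-fold. In bulk RNA, a change in the number of cells with a transcript and a change in transcript per cell cannot be told apart. The median log2 ratio, without over with glucose, was 0.51 for the 5 receptors and 0.73 for the 4 measured ATG8 genes, and 0.01 over all measured genes, with quartiles at -0.45 and 0.42.

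**Figure D1:**
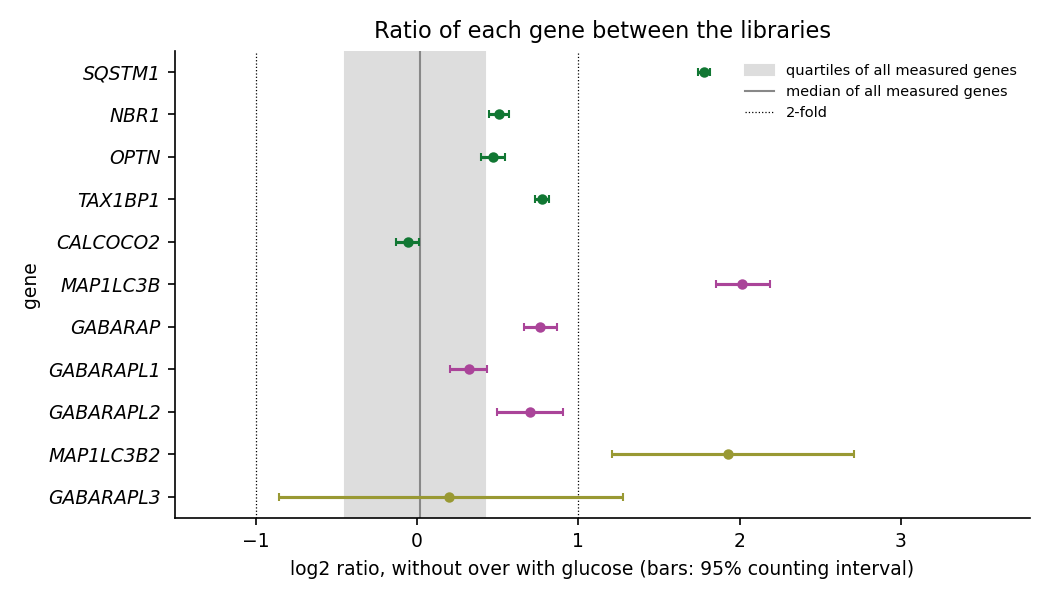
The log2 ratio of each gene, without over with glucose, is plotted with its 95% counting interval, receptors in green, ATG8 genes in purple and 2 near-identical copies in olive; the grey band spans the quartiles of all measured genes and dotted lines mark 2-fold. SQSTM1 and MAP1LC3B stand at 1.78 and 2.02, CALCOCO2 at -0.06 and the other 6 measured members between 0.32 and 0.78.

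SQSTM1, the ubiquitin-binding receptor that gathers cargo into condensates, had 7502 counts with glucose and 28402 without. After scaling it was 3.43-fold higher without glucose (interval 3.34 to 3.52), a ratio at percentile 97.8 of all measured genes. The SQSTM1 model overlaps 2 genes on the minus strand, MGAT4B by 565 bases and C5orf45 by 812 bases, and the use of strand in the counting is not given. Those genes had 3342 and 3372 counts and 128 and 155 counts with and without glucose, log2 ratios of -0.13 and 0.13.

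TAX1BP1, which joins other receptors at ubiquitin-tagged cargo and recruits the machinery of autophagosome formation, had 6322 and 11947 counts, 1.71-fold more without glucose (interval 1.66 to 1.77). NBR1, a receptor for protein aggregates and peroxisomes that can act with SQSTM1, had 3499 and 5491 counts, a 1.42-fold difference (interval 1.36 to 1.48). OPTN, the optineurin receptor of damaged mitochondria and bacteria that is phosphorylated by the kinase TBK1, had 2361 and 3614 counts and a 1.39-fold difference (interval 1.32 to 1.46). All 3 were higher without glucose and inside 2-fold, and the intervals of NBR1 and OPTN overlapped. CALCOCO2 (also named NDP52), a receptor of invading bacteria and damaged mitochondria, had 3306 and 3502 counts, and its scaled ratio of 0.960 had an interval that included 1 (0.915 to 1.01).

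The receptors differed among themselves by more than counting error, on a scale that no library size enters. The SQSTM1 count over the NBR1 count was 2.41-fold higher without glucose than with it (interval 2.30 to 2.54). The same figure was 2.47-fold against OPTN (2.33 to 2.62), 2.0-fold against TAX1BP1 (1.92 to 2.08) and 3.57-fold against CALCOCO2 (3.39 to 3.77). SQSTM1 had the highest ratio of the 5 receptors, and none of these intervals reached equality.

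**Figure D2:**
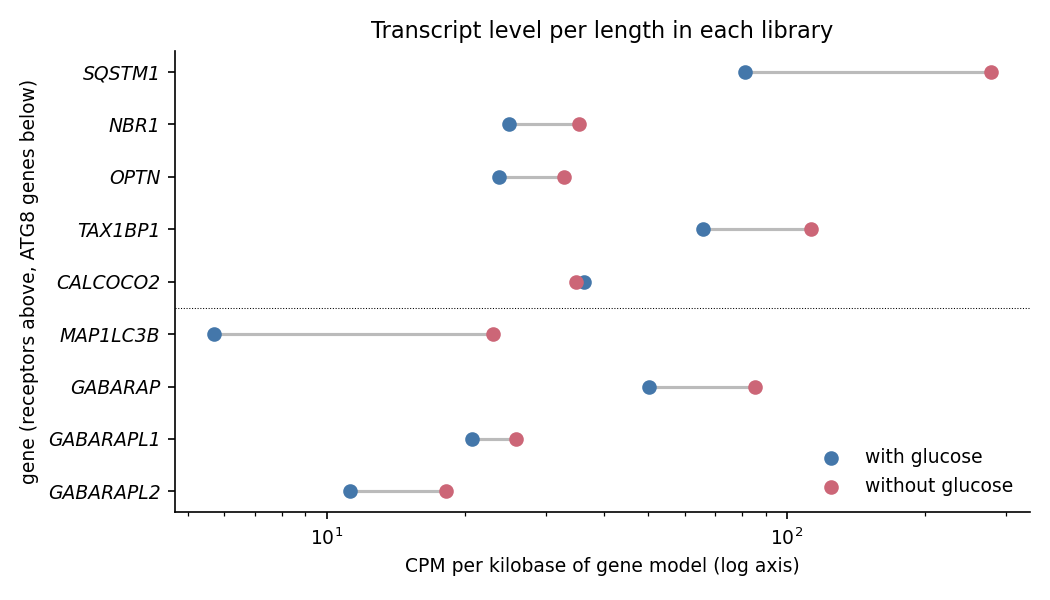
Levels in CPM per kilobase of gene model on a log axis are joined by a line for each measured member, blue with glucose and red without. SQSTM1 has the highest level in both libraries, and MAP1LC3B moves from the lowest of the measured members to above GABARAPL2.

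Levels can be compared between genes only per length, and are given here in CPM per kilobase of gene model. With glucose SQSTM1 was at 81.0, TAX1BP1 at 65.8, CALCOCO2 at 36.3, NBR1 at 24.9 (interval 24.1 to 25.8) and OPTN at 23.7 (22.7 to 24.6), the last pair with overlapping intervals. Without glucose SQSTM1 was at 278 and TAX1BP1 at 113, followed by NBR1 at 35.4 (34.5 to 36.4), CALCOCO2 at 34.8 (33.7 to 36.0) and OPTN at 32.8 (31.8 to 33.9). The intervals of NBR1 and CALCOCO2 overlapped there, as did those of CALCOCO2 and OPTN. Overlap does not show that the levels were equal, and a difference between these pairs was not tested. SQSTM1 made up 35% of the summed receptor level per length with glucose and 56.3% without, and CALCOCO2 15.7% and 7.06%. As a share of receptor counts, SQSTM1 had 32.6% (Clopper-Pearson interval 32.0 to 33.2%) and 53.6% (53.2 to 54.1%).

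Among the ATG8 genes, MAP1LC3B, the LC3 protein used as the usual marker of autophagosomes, had 362 counts with glucose and 1618 without. It was 4.05-fold higher without glucose (interval 3.61 to 4.55), at percentile 98.4 of all measured genes. GABARAP, the founding member of the other ATG8 subfamily, had 1245 and 2335 counts and was 1.70-fold higher (1.59 to 1.82). GABARAPL2, also known as GATE-16, had 312 and 559 counts and was 1.62-fold higher (1.41 to 1.87). GABARAPL1, the closest relative of GABARAP, had 1075 and 1480 counts and was 1.25-fold higher (1.15 to 1.35), the smallest difference of the 4. The intervals of GABARAP and GABARAPL2 overlapped each other and lay above that of GABARAPL1.

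MAP1LC3A, an LC3 gene with its own locus, had 1 count with glucose and 0 without. Of the 5992 ATG8 counts without glucose, 0 allows a share of up to 0.0615% (upper Clopper-Pearson limit), and no fold is given. MAP1LC3C, a further LC3 gene outside the set, had 1 and 2 counts. The other LC3 counts were those of MAP1LC3B and of its copy MAP1LC3B2.

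MAP1LC3B differed from the GABARAP genes by more than counting error. Its count over that of GABARAP was 2.38-fold higher without glucose than with it (interval 2.08 to 2.73), over GABARAPL2 2.49-fold (2.08 to 3.0) and over GABARAPL1 3.25-fold (2.82 to 3.74). Against MAP1LC3B2, which had 20 counts with glucose and 84 without, the same figure was 1.06 (0.610 to 1.78), so a difference between the ratios of this pair was not detectable at this depth. MAP1LC3B2 itself had a log2 ratio of 1.93 (interval 1.21 to 2.71), also past the size rule. Whether its counts were reads of MAP1LC3B was not tested. GABARAPL3, a pseudogene copy of GABARAPL1, had 15 and 19 counts, and its interval of 0.553 to 2.43 included equality.

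**Figure D3:**
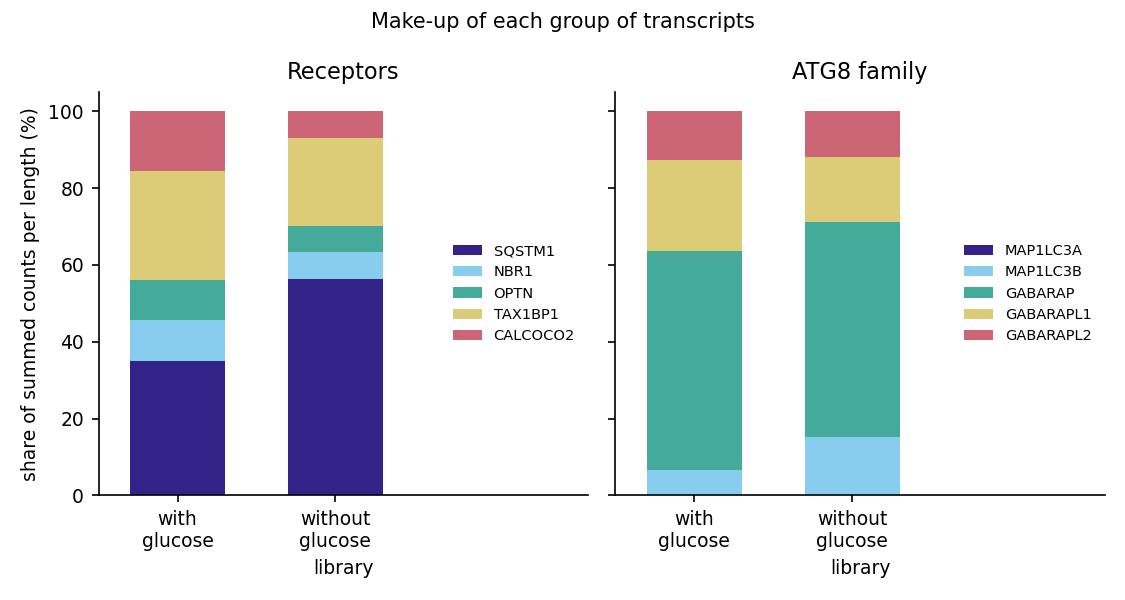
Stacked bars give each gene's share, in percent, of the summed counts per length of the receptors (left) and of the ATG8 genes (right), with glucose and without. The SQSTM1 segment grows from 35% to 56.3% and the MAP1LC3B segment from 6.47% to 15.1%, and MAP1LC3A is too small to see.

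Most ATG8 transcript belonged to the GABARAP subfamily in both libraries. Per length, GABARAP was at 50.3 CPM per kilobase with glucose and 85.4 without, GABARAPL1 at 20.7 and 25.8, GABARAPL2 at 11.2 and 18.2, and MAP1LC3B at 5.69 (interval 5.12 to 6.31) and 23.0 (21.9 to 24.2). MAP1LC3B was the lowest of the 4 with glucose, and without glucose it stood above GABARAPL2 and below GABARAPL1 (24.5 to 27.2), with intervals that did not overlap. This order rests on the division by gene model length, whose error the intervals do not cover. In counts MAP1LC3B was above GABARAPL2 with glucose (362 and 312) and above GABARAPL1 without (1618 and 1480). GABARAP had a share of 57.2% and 56.0% of the family level per length, MAP1LC3B went from 6.47% to 15.1%, and GABARAPL1 from 23.6% to 16.9%. As a share of ATG8 counts, MAP1LC3B had 12.1% (Clopper-Pearson interval 10.9 to 13.3%) and 27.0% (25.9 to 28.1%). The GABARAP genes together held 93.5% of the family level with glucose and 84.9% without. Summed per length, the receptors were 2.13-fold and the ATG8 genes 1.73-fold higher without glucose, and the receptor sum was 2.63 and 3.24 times the ATG8 sum.

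**Figure D4:**
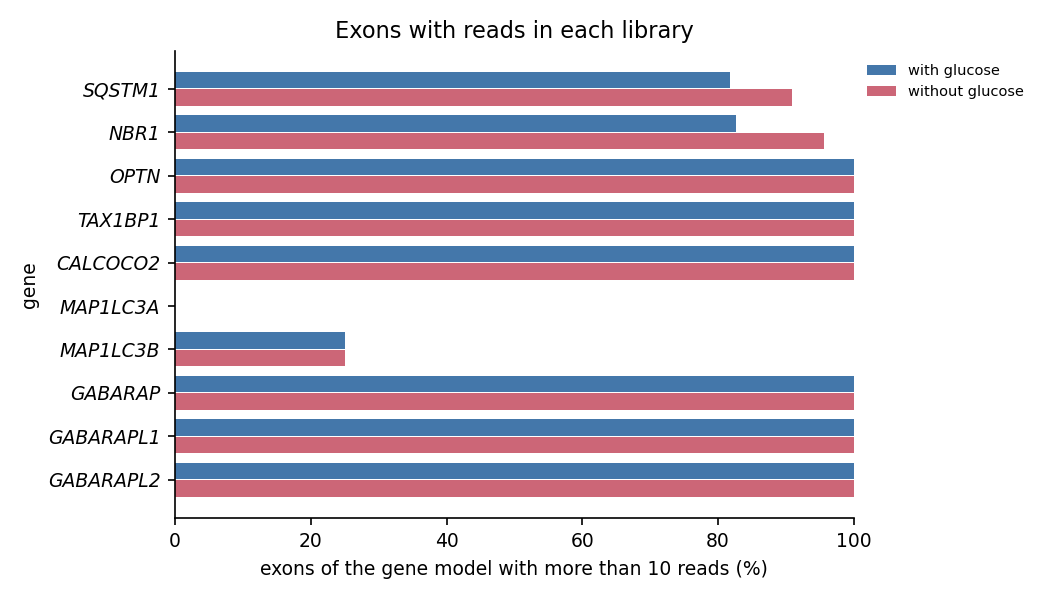
Bars give the percentage of exons of each gene model with more than 10 reads, blue with glucose and red without. MAP1LC3B stands at 25.0% in both libraries and MAP1LC3A at 0, while the other members are at 81.8% or more.

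The level per length of MAP1LC3B rests on few of its exons. The tables give the number of exons with more than 10 reads, and for MAP1LC3B it was 1 of 4 in both libraries, although it had 1618 counts without glucose. GABARAP, GABARAPL1 and GABARAPL2 had 4 of 4. Of the 500 genes with 4 exons and at least 300 counts in each library, 12 had 1 such exon or none without glucose, 2.40%, and their median was 4. OPTN, TAX1BP1 and CALCOCO2 had reads over this bound in all their exons, SQSTM1 in 9 of 11 with glucose and 10 of 11 without, and NBR1 in 19 and 22 of 23.

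The same gene shares sequence with other loci. In the GENCODE transcript of MAP1LC3B, all 7 windows of 50 bases inside exon 2 and all 58 inside exon 3 occur exactly in transcripts from another place in the genome, MAP1LC3B2 or the pseudogene MAP1LC3BP1. In exon 1 it was 0 of 619 windows, and in exon 4, the last, 92 of 1808, or 5.09%. Over the whole transcript it was 265 of 2639 windows, against a share of 4.30% for GABARAPL1, 2.02% for GABARAP, at most 0.346% for the receptors and 0 for GABARAPL2 and MAP1LC3A. The MAP1LC3B transcript searched has 2688 bases and its counted gene model 2284, so the windows and the model do not match base for base. For GABARAP these lengths are 1634 and 889 bases. Whether reads that map to several places were kept is not given, and the part of the shared sequence in the exon counts was not tested. With the counts of MAP1LC3B2 added, the log2 ratio of MAP1LC3B was 2.01 in place of 2.02. This sum could move the ratio only a little, as it added 20 and 84 counts to 362 and 1618. It does not cover reads that were dropped or assigned to MAP1LC3BP1.

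The ATG8 gene models are short, and short genes were higher without glucose across the tables. By class of gene model length, with 10 classes, the median was 0.31 on the log2 scale in the shortest, which holds GABARAP and GABARAPL2, 0.15 in that of GABARAPL1, 0.05 in that of MAP1LC3B and -0.03 in that of SQSTM1, TAX1BP1 and CALCOCO2. With the class median subtracted, the log2 ratio was 0.46 in place of 0.76 for GABARAP, 0.39 in place of 0.70 for GABARAPL2 and 0.17 in place of 0.32 for GABARAPL1. It was 1.81 for SQSTM1 and 1.97 for MAP1LC3B, and the median of the ATG8 genes became 0.43.

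The rest of the pathway was taken from lists of autophagy genes by role. Of 76 measured genes outside the set, 4 were past the rule as higher (CCPG1, WIPI1, VPS11 and DDIT3) and 1 as lower (TFEB), with a median log2 ratio of 0.19, and 41 had an interval above equality and 21 below it. These 4 and 1 of 76 stand beside the 3.75% and 6.20% of all measured genes called higher and lower, and the interval counts beside 37.4% and 36.5%.

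**Figure D5:**
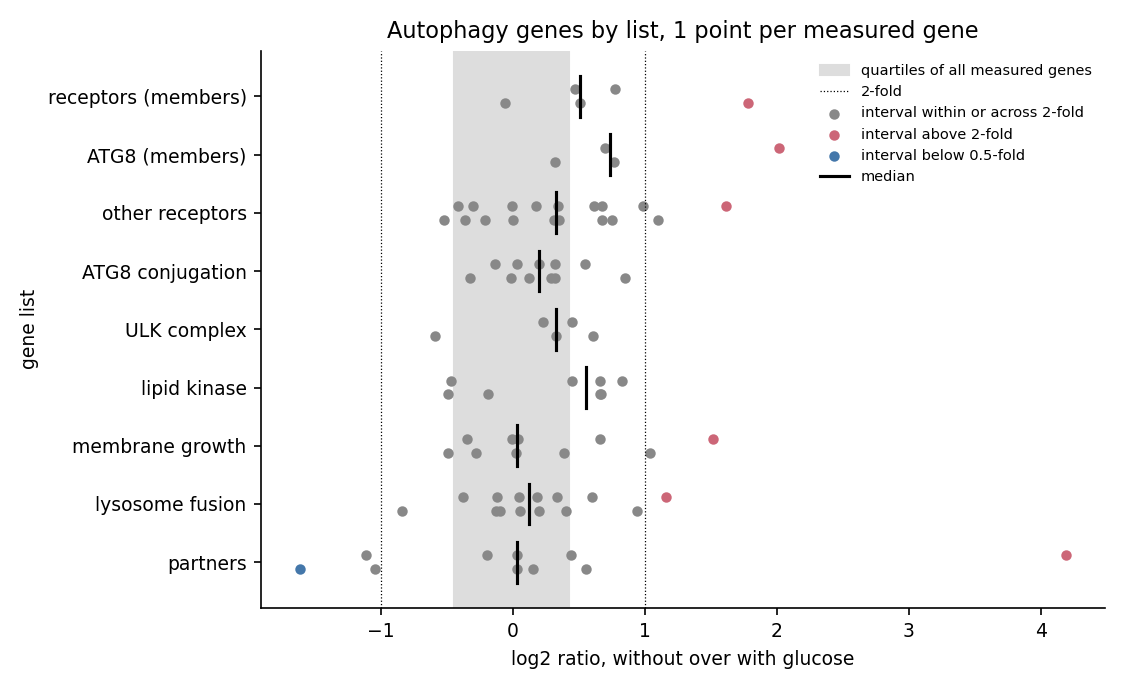
Each point is the log2 ratio of 1 measured gene, without over with glucose, in rows by list, with the list median as a black bar, the quartiles of all measured genes as a grey band and 2-fold as dotted lines; red and blue points are past the size rule. Medians of the lists outside the members run from 0.03 to 0.55, and DDIT3 at 4.20 and TFEB at -1.62 are the outermost points.

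Of 18 other receptors that bind ATG8 proteins, 1 was past the rule. CCPG1, a receptor for autophagy of the endoplasmic reticulum, had 34.4 CPM with glucose and 105 CPM without, a log2 ratio of 1.62 (interval 1.51 to 1.72). NCOA4, the ferritin receptor and the most counted of those inside the bounds, had 311 CPM in both libraries (0.00). The list had a median of 0.32 and ran from -0.52 to 1.62.

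Of the 11 genes for processing ATG8 proteins and attaching them to lipid, 0 were past the rule. Their median was 0.20, with a range from -0.33 to 0.85. ATG3, the E2-like enzyme of the last step, had 65.1 and 95.1 CPM (0.55). Of the 5 genes of the ULK kinase complex that starts autophagy, 0 were past it (median 0.32), with the scaffold RB1CC1 at 338 and 396 CPM (0.23). Of the 8 genes of the lipid kinase complexes, 0 were past it (median 0.55), with PIK3R4 at 125 and 88.4 CPM (-0.50).

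Of 10 measured genes of membrane growth, 1 was past the rule (median 0.03). WIPI1, which binds the lipid made by that kinase, had 11.7 and 33.4 CPM and a log2 ratio of 1.51 (1.33 to 1.70), and VMP1, listed in the tables as TMEM49, had 286 and 203 CPM (-0.49). Of 14 genes of fusion with the lysosome, 1 was past it (median 0.12), the tethering subunit VPS11 at 36.2 and 80.7 CPM (1.16, interval 1.05 to 1.26). EPG5, a tether listed as KIAA1632, had 205 and 393 CPM (0.94, 0.90 to 0.99). CCPG1 and WIPI1 were the genes of these lists with ratios nearest to those of both SQSTM1 and MAP1LC3B, and with 2 libraries such likeness is that of 1 number.

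Among the kinase, adaptor and transcription factors tied to these genes, DDIT3, the stress-induced factor CHOP, had 18.6 CPM with glucose and 342 CPM without, and ATF4 had 222 and 300 CPM (0.44). TFEB, a factor that drives lysosome and autophagy genes, had 8.29 and 2.70 CPM (-1.62, interval -2.0 to -1.25), and its relatives TFE3 and MITF had log2 ratios of 0.03 and -1.11. NFE2L2, which encodes NRF2, had 73.4 and 107 CPM (0.55), KEAP1 62.7 and 69.4 CPM (0.15) and TBK1 40.6 and 41.4 CPM (0.03). The median of the 10 genes was 0.03.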

How the data were processed

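Each table had 24364 gene models on hg19, per the submitters' processing notes. Per the file headers, the deposited values were raw counts, and all were whole. The deposited RPKM values, per the file headers, were counts per kilobase and per 1e6 reads, and served as an alternative only. The aligner, the counter, its strand setting and the read length are not stated there. Rows repeating the place and counts of another (538) were dropped and counts summed by symbol. Library sizes were scaled by TMM (edgeR 4.0.16, R 4.3.3) over genes with at least 20 counts, with factors of 1.02 and 0.981. Ratio intervals were Clopper-Pearson intervals of the share of a gene's counts in each library, level intervals were exact Poisson, and those between 2 genes were conditional odds ratios (Python 3.11.15, scipy 1.17.1). They cover counting error only, and may be too narrow even for that, since PCR copies are not independent molecules. A count of 0 had a floor of 3 counts. With 1 library per group edgeR was used for scaling alone. Windows of 50 bases were searched in all GENCODE 29 transcripts, leaving out genes within 1000 bases. Promoters are from RefSeq, for 9 of 10 members, and coding sequences were aligned with Biopython 1.88. The interval procedure was tested on simulated Poisson counts, the error it assumes. The simulation had no PCR copies and no variation between cultures, so it does not cover these. Named genes were the 10 members and, per pathway list, all past the rule and the most counted inside it; further genes were named after their values were seen. The members, lists and alternatives were chosen with earlier results of these data known. One marker of another cell type is not reported here.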

Additional observations from a re-analysis of the deposited data

How the results depend on the processing

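Leaving out a replicate could not be tried. No paired analysis was possible because there were only 2 libraries. Filters of 1 or 100 counts could not change the members' calls, since each measured member had at least 871 counts and MAP1LC3A had 1. Alternative scalings were by total counts, upper quartile or DESeq2 size factors. Further alternatives left out small RNA genes, added 1 CPM, subtracted the length class median or used 3-fold. Under each of these scalings and alternatives, SQSTM1 and MAP1LC3B were the members past the rule. At 1.5-fold TAX1BP1 and GABARAP joined them, 4 in all, and 1451 genes were higher and 1800 lower, against 200 and 306 at 3-fold and 534 and 883 at 2-fold. With the length class median subtracted, the median was 0.61 for the receptors and 0.43 for the ATG8 genes. No measured member's ratio changed sign under any alternative run, with ranges of 1.72 to 1.82 for SQSTM1, 1.94 to 2.06 for MAP1LC3B and -0.12 to -0.02 for CALCOCO2. Without division by length, the ATG8 shares with and without glucose were 41.6% and 39.0% for GABARAP, 35.9% and 24.7% for GABARAPL1, 12.1% and 27.0% for MAP1LC3B and 10.4% and 9.33% for GABARAPL2. Depth limits MAP1LC3A, MAP1LC3B2 and GABARAPL3.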
